A study of Homo sapiens with 15 samples.

Results

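The genes described here encode the subunits of integrins and laminins. They were chosen by symbol from the deposited gene table: every integrin alpha subunit (18 genes), integrin beta subunit (8 genes), laminin alpha chain (5 genes), laminin beta chain (4 genes) and laminin gamma chain (3 genes), which gives 38 of 60675 genes. They were measured by RNA sequencing in HT1080, an established human fibrosarcoma line, in 4 groups. Wild-type cells were given 1 µM TMP195, an inhibitor of class IIa lysine deacetylases, for 2 days (3 libraries). Untreated cells carried KDAC7 H709A (4 libraries) or KDAC4 H803A (3 libraries) in the cells' own gene, both taken here as inactive forms of a class IIa deacetylase. The last untreated group carried KDAC4 H976Y (4 libraries), in which a histidine of the catalytic site is a tyrosine, a change known to raise the activity of class IIa enzymes. KDAC4 and KDAC7 are the products of HDAC4 and HDAC7. Untreated wild-type cells are not analysed here, so a difference between TMP195 and a variant cannot be told apart from a difference between wild-type and edited cells. The labels do not give the number of clones behind a variant or say that a group's libraries come from separate cultures. The p-values then reflect the spread among these libraries alone, and that spread may be technical.

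Integrins are cell surface receptors built of 1 alpha and 1 beta subunit, and the pairing sets the ligand: collagens, laminins, fibronectin, vitronectin or cell surface counter-receptors. Laminins are secreted heterotrimers of an alpha, a beta and a gamma chain that form the sheet of the basement membrane and are themselves ligands of integrins. Class IIa deacetylases bind MEF2 transcription factors and recruit corepressors to chromatin. Fibroblastic cells use these receptors to hold and sense the matrix.

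Libraries held 6151417 to 24297525 counts, and levels are given as CPM, counts scaled to a library of 1000000 by the trimmed mean of M values (TMM), so that 1 CPM stood for 4.86 to 23.9 counts. The deposited column of KDAC4 H803A replicate 4 held lengths instead of counts and is left out: 96.8% of 7612 single-transcript genes over 1000 bases had their transcript length minus 248.86 in it, against at most 0.236% of these genes at any single difference in another column. Some libraries stood apart from their group. Counts of KDAC4 H803A replicate 1 differed from those of KDAC7 H709A replicate 4 by 1.78 times the counting noise, and from KDAC4 H803A replicates 2 and 3 by 109 and 112 times. KDAC7 H709A replicate 4 differed from KDAC7 H709A replicates 2 and 3 by 20.8 and 19.7 times. KDAC7 H709A replicate 1 differed from the other KDAC7 H709A libraries by 61.1 to 102 times, and from KDAC4 H803A replicate 3 by 9.51 times. Each of the 3 was thus nearer to a library of the other inactive form than to any of its own group. Whether these libraries carry each other's label, or 2 of them are 1 sample, cannot be told from the files, and the labels were kept as given. The means of both inactive forms, and the comparison between them, therefore depend on these labels. Fits without these 3 libraries (KDAC4 H803A replicate 1, KDAC7 H709A replicates 1 and 4) are given beside the counts. The KDAC4 H976Y libraries gave 16.1% to 31.5% of their counts to mitochondrial ribosomal RNA, against at most 0.345% in any other library, and what share this has in differences from KDAC4 H976Y was not tested. Of 11 mesenchymal markers 7 averaged 1 CPM or more, with VIM at 2690.0 to 5636 CPM over the 14 libraries, while FAP, COL3A1 and S100A4 were among the 4 below. COL1A2, a fibrillar collagen chain of mesenchymal cells, averaged 1.64 ± 0.32 CPM with TMP195 (SD, n = 3), was at 0 in the KDAC7 H709A libraries (n = 4) and averaged 0.0211 ± 0.0366 CPM in KDAC4 H803A (n = 3), against 2.81 ± 0.25 CPM in KDAC4 H976Y (n = 4). FN1, fibronectin, was lower than in KDAC4 H976Y by -1.72 in KDAC7 H709A (log2, edgeR adjusted p = 0.0198) and by -2.18 in KDAC4 H803A (adjusted p = 0.0111). In KDAC4 H803A against KDAC4 H976Y, PDGFRB was also lower (adjusted p = 0.0179), and KRT18 (0.0208) and the platelet marker GP1BB (0.0392, overlapping libraries) were higher. Means of GP1BA and GP9 were higher there too, and that of PPBP was lower. Of 8 tested mesenchymal markers 3 were lower and 0 higher (median log2 fold change -0.0966). Means of COL1A1, TWIST1, THY1 and VIM were higher and that of CDH2 lower. In KDAC7 H709A against KDAC4 H976Y 2 of the 8 were lower and 0 higher (median 0.0441). With TMP195 the endothelial marker KDR was lower than in KDAC7 H709A and KDAC4 H976Y (adjusted p = 0.0174 and 0.0102). No other of the 3 tested endothelial markers was called, and their median log2 fold changes were -0.937 and 0.105. Means of CLDN5, CDH5, VWF and TEK were higher with TMP195 than in KDAC4 H976Y, and that of PECAM1 was lower. LYZ, the only leukocyte marker tested, was lower with TMP195 than in KDAC4 H976Y (adjusted p = 0.00636). The part of these markers in the results was not tested. Of the epithelial markers CDH1 and EPCAM were at or near 0, and KRT8 and KRT18 were present. The leukocyte marker PTPRC was at 0 in every library and all 7 leukocyte markers together reached at most 4.12 CPM.

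Levels were compared between genes per kilobase of effective gene length, the length RSEM uses for a gene. The highest means over the 14 libraries were 467.7 CPM per kb for ITGA3, the alpha subunit of a laminin-332 receptor, and 391.5 CPM per kb for ITGB1, the beta subunit shared by most matrix receptors. LAMB3, the beta chain of laminin-332, followed with 247.6 CPM per kb. ITGB5, a partner of the alpha v subunit, had 215.9 and LAMB1, the beta chain of laminin-111, had 208.6 CPM per kb. With the longest annotated transcript as the length ITGB1, ITGA3 and LAMB3 led and ITGB5 and LAMB1 were ninth and sixth, so the order below the first 3 depends on the length used. The fold between the group with the highest and the group with the lowest level was, among the 29 genes tested, widest for LAMB4, ITGA11, ITGB3, ITGB2 and ITGB8. That of LAMB4 rests on 2 counts with TMP195, and LAMB4 passed the filter on low counts mainly through KDAC4 H976Y. LAMA4 was the alpha chain with the highest level per length in each group, at 67.4 CPM per kb with TMP195, 78.2 in KDAC7 H709A, 45.5 in KDAC4 H803A and 142 in KDAC4 H976Y.

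**Figure D1:**
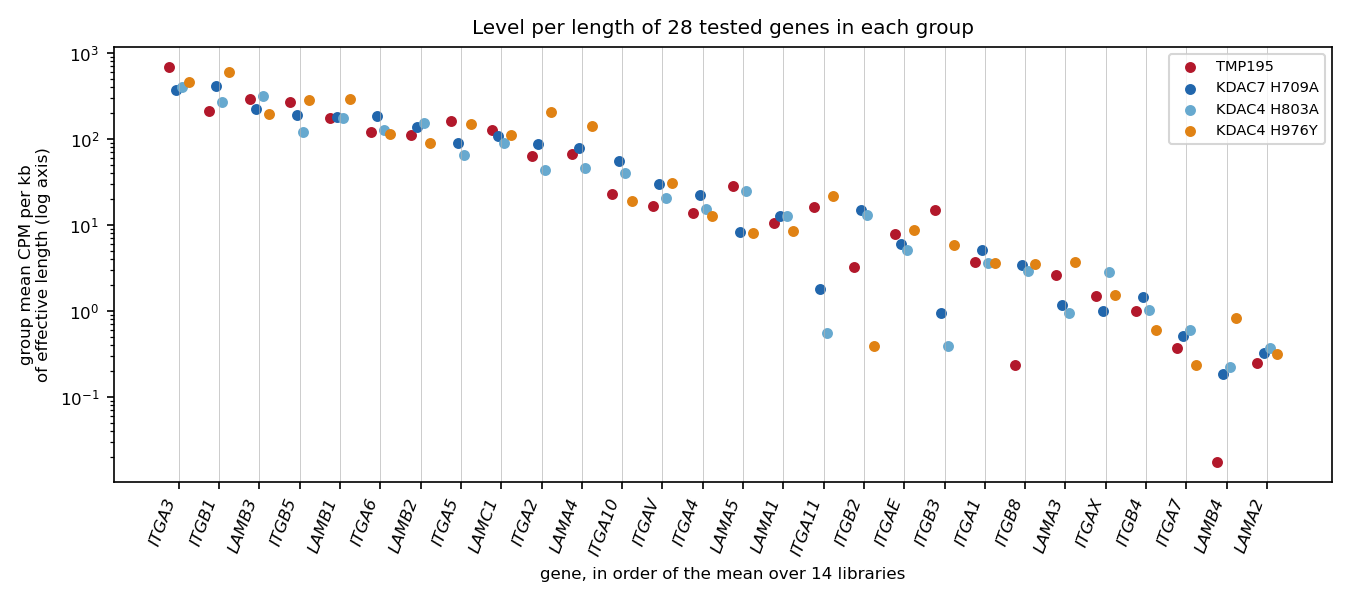
Group mean level of 28 of the 29 tested integrin and laminin genes in CPM per kb of effective length (log axis), 1 point per group, ordered by the mean over 14 libraries. Most genes have 4 points close together, while ITGA11, ITGB2, ITGB3, ITGB8 and LAMB4 have groups far apart. The TMP195 point of LAMB4 rests on 2 counts.

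Of the 38 genes 29 (18 integrins and 11 laminins) passed the filter on low counts and were tested among 17780 genes. A gene that passes because 1 group is high had to differ, so counts over the 29 are a description. The 9 others were low, with the highest group means at 1.01 CPM for LAMC3 and 0.887 CPM for ITGB7, both in KDAC4 H803A. ITGA8 had 0 counts, and the highest count in any library was 1 for ITGAD, 4 for ITGAM, 5 for ITGAL, 7 for ITGB6, 9 for ITGA2B, 9 for ITGA9, 15 for ITGB7 and 17 for LAMC3. The leukocyte alpha subunits that pair with ITGB2 (ITGAL, ITGAM and ITGAD) were therefore almost without counts, and the remaining one, ITGAX, was tested and stood at 0.461 to 9.21 CPM.

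Calls were made at a threshold of 0.05 on the adjusted p, which comes from edgeR's quasi-likelihood test with Benjamini-Hochberg adjustment over all genes tested. In KDAC4 H803A against KDAC4 H976Y, 10 of 29 genes were called, 2 higher and 8 lower, where 15.1% of all genes were called, 9.21% higher and 5.85% lower. Libraries did not overlap for 14 of the 29, where 23.1% of all genes had groups that did not overlap. Their median log2 fold change was -0.17, against 0.09 over all genes. The genes lower in KDAC4 H803A were the integrin subunits ITGA2, ITGA5, ITGA11, ITGB3 and ITGB5 and the laminin chains LAMA3, LAMA4 and LAMB1, and those higher were ITGB2 and LAMA1. In KDAC7 H709A against KDAC4 H976Y, 7 of 29 were called, where 12.5% of all genes were, 7.28% higher and 5.19% lower. ITGA11, ITGB3, LAMA3 and LAMB1 were lower and ITGA10, ITGB2 and LAMA1 higher. Groups did not overlap for 10 of the 29, against 20.1% of all genes. The median was -0.03, against 0.09 over all genes. These 2 comparisons share the KDAC4 H976Y libraries. Without KDAC4 H803A replicate 1 the counts were 18 (45.3% of all genes) and 11 (18.5%), and without KDAC4 H803A replicate 3 the count in KDAC4 H803A against KDAC4 H976Y was 5 (6.15%).

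Between the inactive forms, KDAC7 H709A against KDAC4 H803A, 0 of 29 genes were called with edgeR, where 0.0% of all genes were, and 4 of the 29 had an unadjusted p under 0.05. DESeq2 called 0 of the 29 as well. Only LAMA3 had groups that did not overlap, where 2.01% of all genes had. The count rests on 1 library: without KDAC4 H803A replicate 1 it was 12, where 25.7% of all genes were called. Without the 3 libraries that stood apart it was 21 of 31, where 60.2% of all genes were called.

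With TMP195 against KDAC4 H803A, 7 of 29 genes were called, where 5.34% of all genes were, 1.56% higher and 3.78% lower. ITGA3, ITGA5, ITGA11, ITGB3, ITGB5 and LAMA3 were higher and ITGB8 was lower with TMP195. Groups did not overlap for 12 of the 29, against 24.3% of all genes. The median log2 fold change was -0.06, against -0.11 over all genes. With TMP195 against KDAC7 H709A, 5 of 29 were called, where 6.29% of all genes were, 1.99% higher and 4.31% lower. ITGA3, ITGA11, ITGB3 and LAMA3 were higher and ITGB8 lower. Groups did not overlap for 10 of the 29, against 24.3% of all genes. The median was -0.30, against -0.07 over all genes. With TMP195 against KDAC4 H976Y, 6 of 29 were called, where 16.5% of all genes were, 7.96% higher and 8.55% lower. ITGA3, ITGB2 and ITGB3 were higher and ITGB8, LAMB1 and LAMB4 lower. Groups did not overlap for 18 of the 29, near the 53.8% of all genes. The median was 0.10, against 0.03 over all genes. These 3 comparisons share the TMP195 libraries. Without KDAC4 H803A replicate 1 the counts were 11 against KDAC4 H803A (14.5% of all genes), 9 against KDAC7 H709A (14.6%) and 10 against KDAC4 H976Y (27.3%). Without KDAC7 H709A replicate 1 the count against KDAC7 H709A was 8 (15.7%). Without KDAC4 H803A replicate 3 (3.06%) or TMP195 replicate 2 (2.35%) the count against KDAC4 H803A was 4. Against KDAC4 H976Y it was 3 without KDAC4 H976Y replicate 3 (9.61%) and 2 without any 1 of the TMP195 libraries (7.49%, 7.32% and 7.08% for replicates 1 to 3). In all, 14 genes were called in at least 1 comparison and 15 tested genes in none.

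Counts were larger without the 3 libraries that stood apart, and so was the share of all genes called. They were 26 of 31 genes in KDAC4 H803A against KDAC4 H976Y (64.5% of all genes), 16 in KDAC7 H709A against KDAC4 H976Y (31.8%), 22 with TMP195 against KDAC4 H803A (47.9%), 17 with TMP195 against KDAC7 H709A (45.7%) and 16 with TMP195 against KDAC4 H976Y (53.9%). Of 35 calls, 18 held in each of 24 alternative analyses and none changed sign: all calls of ITGA11, LAMA3, ITGB8 and ITGA10, the ITGB2 calls of both inactive forms, and the ITGB3 calls that involve an inactive form.

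**Figure D2:**
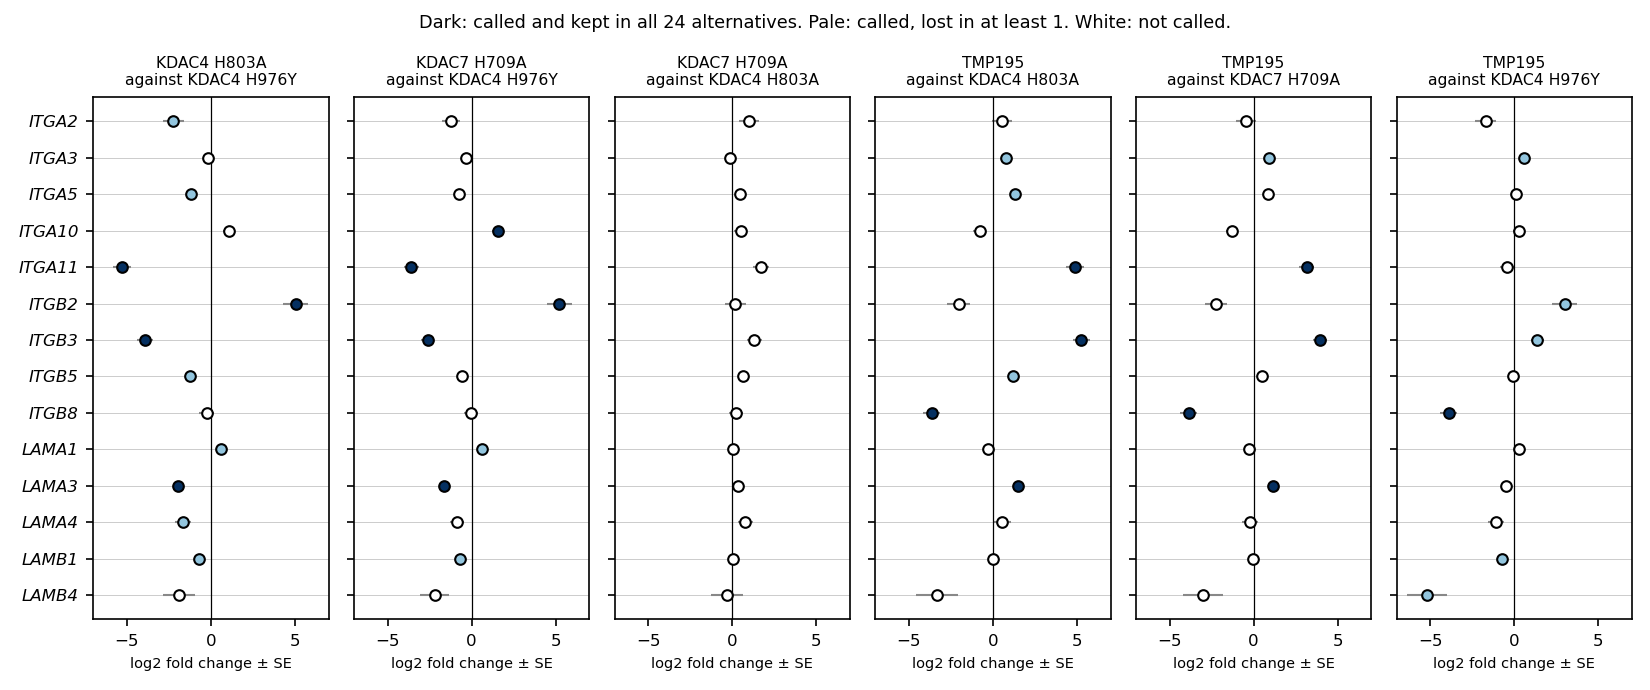
Fitted log2 fold change with its SE of the 14 called genes in each of the 6 comparisons, positive values being higher in the group named first. Dark points mark calls that held in each of the 24 alternatives (ITGA10, ITGA11, ITGB2, ITGB3, ITGB8 and LAMA3), pale points calls lost in at least 1, white points no call. The LAMB4 folds involving TMP195 rest on 2 counts.

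**Figure D3:**
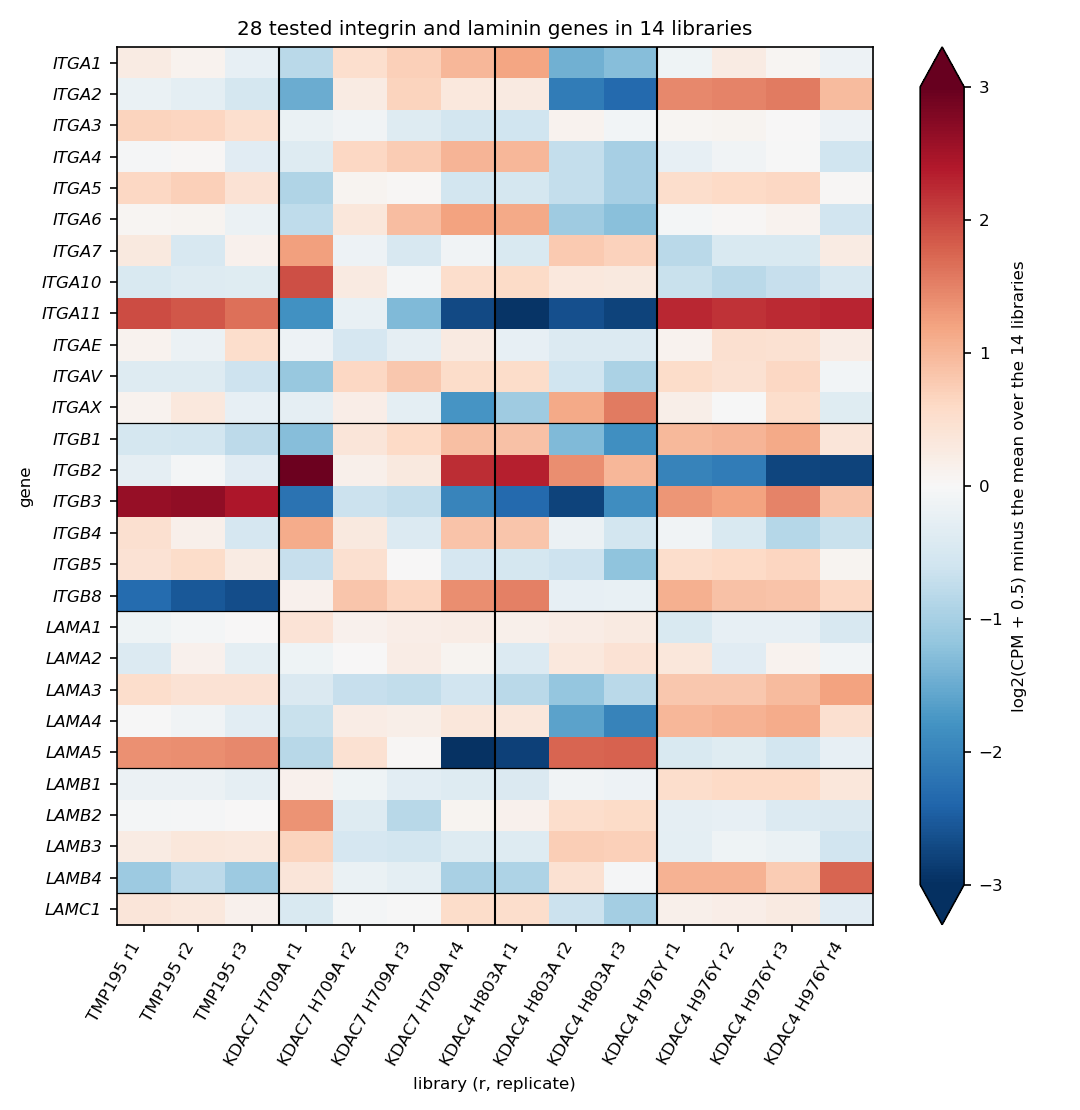
Level of 28 of the 29 tested genes in each of the 14 libraries, as log2(CPM + 0.5) minus the gene's mean over the libraries; colours end at 3 in either direction. ITGA11, ITGB3 and LAMA3 are low in all KDAC7 H709A and KDAC4 H803A libraries, ITGB8 is low in the 3 TMP195 libraries, and ITGA1, ITGA2, ITGA6, ITGB1 and LAMA5 differ within the inactive groups.

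Promoter sequences from the RefSeq table (GRCh38.p14) matched 26 of the 38 genes. Those of 5 called genes are shown, so that the start of genes with different patterns can be read side by side, and they were chosen after their values were seen: ITGA11, ITGA5 and LAMA3, lower in KDAC4 H803A than in KDAC4 H976Y, and ITGB8 and LAMB4, lower with TMP195. They run from 250 bases before to 5 after the start of the gene's entry, at chr15:68432159-68432413 (minus strand), chr12:54419262-54419516 (minus strand), chr7:20330650-20330904 (plus strand), chr18:23872770-23873024 (plus strand) and chr7:108130357-108130611 (minus strand). Capitals mark matches on either strand to 5 motifs. The AP-1 motif was TGANTCA. The GC box was GGGCGG. The TEAD motif was GGAATG. The TATA box was TATAAA. The MEF2 motif was searched by the outer fixed letters of its consensus, with any 4 bases between them.
ITGA11: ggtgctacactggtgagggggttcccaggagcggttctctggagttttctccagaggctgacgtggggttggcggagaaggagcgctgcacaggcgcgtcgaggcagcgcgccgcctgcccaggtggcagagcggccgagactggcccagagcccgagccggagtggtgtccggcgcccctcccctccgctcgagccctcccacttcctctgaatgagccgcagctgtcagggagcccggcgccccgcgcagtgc
ITGA5: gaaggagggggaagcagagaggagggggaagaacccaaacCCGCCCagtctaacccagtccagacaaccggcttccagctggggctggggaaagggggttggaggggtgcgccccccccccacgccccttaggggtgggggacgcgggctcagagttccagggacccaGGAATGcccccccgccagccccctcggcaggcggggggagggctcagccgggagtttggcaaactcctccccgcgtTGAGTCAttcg
ITGB8: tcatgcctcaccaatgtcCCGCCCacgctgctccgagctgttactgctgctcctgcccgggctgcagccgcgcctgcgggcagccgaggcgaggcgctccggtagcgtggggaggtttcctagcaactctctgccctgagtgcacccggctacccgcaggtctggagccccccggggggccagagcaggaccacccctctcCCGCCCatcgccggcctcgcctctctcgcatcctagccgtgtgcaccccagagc
LAMA3: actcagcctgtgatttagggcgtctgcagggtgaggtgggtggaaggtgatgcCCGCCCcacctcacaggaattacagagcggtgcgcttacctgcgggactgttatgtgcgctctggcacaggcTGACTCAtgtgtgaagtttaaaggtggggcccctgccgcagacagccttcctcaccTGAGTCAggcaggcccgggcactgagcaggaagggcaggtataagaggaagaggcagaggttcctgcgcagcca
LAMB4: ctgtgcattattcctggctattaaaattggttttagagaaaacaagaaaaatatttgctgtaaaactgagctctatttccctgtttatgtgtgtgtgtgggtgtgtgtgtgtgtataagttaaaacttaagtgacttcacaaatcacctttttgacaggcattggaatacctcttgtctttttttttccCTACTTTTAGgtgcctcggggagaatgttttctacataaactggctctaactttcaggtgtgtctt
Matches of different motifs did not overlap in them. LAMA3 held 2 AP-1 motifs, 125 and 69 bases before the start, and ITGA5 held 1 that begins 6 bases before it. These were the only 2 of the 26 genes with an AP-1 motif in the full 300-base windows, against 7.76% of 27305 promoters. The entries of ITGA5, ITGB8 and LAMA3 start inside the gene as the counts' annotation places it, 194, 198 and 183577 bases from its end at the 5′ side, so that of LAMA3 is an internal start far from it. ITGB8 held 2 GC boxes, and 14 of the 26 genes and 44.6% of all promoters held at least 1. LAMB4 held the only match to the loose MEF2 pattern among the 26, against 2.83% of all promoters by the same pattern. The 4 bases inside it, CTTT, hold a C, so it is not a full MEF2 consensus site. ITGA11 held none of the 5 motifs. A TEAD motif stood in 4 of the 26 (14.05% of all promoters) and a TATA box in 1, ITGA6 (12.0%). A match is a string of letters and was not tested for binding.

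Among the collagen receptors, ITGA11, a collagen-binding alpha subunit of fibroblasts (ENSG00000137809, chromosome 15, 68296533 to 68432162), stood at 76.3, 72.2 and 62.3 CPM with TMP195 and at 5.12, 16.5, 7.45 and 2.56 CPM in KDAC7 H709A. It stood at 2.09, 2.71 and 2.41 CPM in KDAC4 H803A and at 95.7, 88.9, 94.1 and 97.0 CPM in KDAC4 H976Y. Every library of both inactive forms lay below every library of the other 2 groups. The log2 fold change was -3.58 ± 0.43 for KDAC7 H709A against KDAC4 H976Y (SE, edgeR adjusted p = 0.000236) and -5.29 ± 0.54 for KDAC4 H803A against KDAC4 H976Y (adjusted p = 7.53e-05). TMP195 was higher by 3.16 ± 0.44 than KDAC7 H709A (log2, adjusted p = 0.000604) and by 4.87 ± 0.54 than KDAC4 H803A (adjusted p = 0.000107). TMP195 against KDAC4 H976Y gave -0.42 ± 0.42 (adjusted p = 0.506), with no overlap between the groups. KDAC7 H709A against KDAC4 H803A gave 1.71 ± 0.47 (adjusted p = 0.574), and 2.21 without the 3 libraries (adjusted p = 7.02e-05, range over the alternatives 7.02e-05 to 1). Its promoter, shown above, is rich in CG dinucleotides (29, median of all promoters 14).

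ITGA10, a collagen-binding alpha subunit known from cartilage, had 57.0, 60.1 and 61.2 CPM with TMP195 and 300.0, 95.3, 76.0 and 113 CPM in KDAC7 H709A. KDAC4 H803A had 117, 97.8 and 96.0 CPM, and KDAC4 H976Y had 49.1, 44.8, 48.6 and 56.0 CPM. All libraries of both inactive forms lay above all of the other groups, and replicate 1 of KDAC7 H709A was far above its group. The change was 1.56 ± 0.35 in KDAC7 H709A against KDAC4 H976Y (edgeR adjusted p = 0.0104), 0.93 without KDAC7 H709A replicate 1 and 0.79 without the 3 libraries (adjusted p = 0.000296, range over the alternatives 0.000253 to 0.0409). For KDAC4 H803A against KDAC4 H976Y it was 1.06 ± 0.36 (adjusted p = 0.0641).

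ITGA2, the alpha subunit of the epithelial and platelet collagen receptor, had 394, 368 and 311.5 CPM with TMP195 and 160.5, 537, 712 and 562 CPM in KDAC7 H709A. It had 547, 106 and 89.6 CPM in KDAC4 H803A, against 1231, 1267, 1320.0 and 869 CPM in KDAC4 H976Y. KDAC4 H803A was lower in every library, with replicate 1 far above replicates 2 and 3. The log2 fold change of KDAC4 H803A against KDAC4 H976Y was -2.24 ± 0.61 (edgeR adjusted p = 0.0282), lost in 7 of 24 alternatives, and -3.60 without the 3 libraries (adjusted p = 5.73e-08, range 5.73e-08 to 0.118). It was lost without KDAC4 H803A replicate 2 (adjusted p = 0.108) or 3 (0.118) and without KDAC4 H976Y replicate 1, 2 or 3 (0.0665 to 0.0723), and was -3.60 without KDAC4 H803A replicate 1 alone.

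ITGA5, the alpha subunit of the classical fibronectin receptor, had 514.5, 555 and 451 CPM with TMP195 and 179, 357, 343 and 230.5 CPM in KDAC7 H709A. KDAC4 H803A stood at 233, 205 and 169 CPM and KDAC4 H976Y at 484.5, 505, 518 and 347 CPM. All KDAC4 H803A libraries lay below those of TMP195 and of KDAC4 H976Y. The change in KDAC4 H803A against KDAC4 H976Y was -1.20 ± 0.25 (edgeR adjusted p = 0.00876), and TMP195 was higher than KDAC4 H803A by 1.32 ± 0.27 (adjusted p = 0.0104). Without KDAC4 H803A replicate 3 both calls were lost (adjusted p = 0.0552 and 0.0698), and the TMP195 call also without TMP195 replicate 2 (adjusted p = 0.0574). KDAC7 H709A against KDAC4 H976Y gave -0.74 ± 0.23 (adjusted p = 0.0507), with overlapping groups.

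ITGA3, which pairs with ITGB1 to bind laminins, had 2249, 2237 and 2031 CPM with TMP195 and 1233, 1327, 1084 and 974 CPM in KDAC7 H709A. KDAC4 H803A had 946.5, 1526 and 1335 CPM and KDAC4 H976Y 1473, 1514, 1442 and 1289 CPM. The 3 TMP195 libraries lay above all 11 others. TMP195 was higher by 0.91 ± 0.19 than KDAC7 H709A (log2, edgeR adjusted p = 0.0142), by 0.78 ± 0.21 than KDAC4 H803A (adjusted p = 0.0494) and by 0.60 ± 0.19 than KDAC4 H976Y (adjusted p = 0.0494). These calls were lost in 6, 17 and 16 of 24 alternatives. The first was lost without TMP195 replicate 1 or 2 (adjusted p = 0.0742 and 0.0727). The call against KDAC4 H803A was lost without any 1 library other than KDAC7 H709A replicate 1 and KDAC4 H976Y replicate 4 (adjusted p = 0.0507 to 0.166). The call against KDAC4 H976Y was lost without any 1 library other than KDAC7 H709A replicate 1 and KDAC4 H803A replicates 1 and 2 (adjusted p = 0.0512 to 0.149). With GC and length offsets the TMP195 change against KDAC4 H976Y was 0.35 (adjusted p = 0.357, range over the alternatives 0.00105 to 0.471). The call against KDAC7 H709A was lost with these offsets too.

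ITGA6, another laminin-binding alpha subunit, was called in no comparison. It had 467, 478 and 397 CPM with TMP195, 266, 565, 858 and 1031 CPM in KDAC7 H709A, 993, 214 and 187 CPM in KDAC4 H803A and 433, 458, 482 and 301 CPM in KDAC4 H976Y. Both inactive forms spanned the range of the other groups. ITGAV, the alpha v subunit of the vitronectin and latent TGF-beta receptors, had 64.1 to 76.1 CPM with TMP195, 45.0 to 174 CPM in KDAC7 H709A, 51.2 to 145 CPM in KDAC4 H803A and 93.5 to 153 CPM in KDAC4 H976Y. Its log2 fold change with TMP195 against KDAC4 H976Y was -0.88 ± 0.42 (edgeR adjusted p = 0.165), and the other comparisons did not pass either.

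ITGB3, ITGB8 and ITGB5 encode beta subunits that pair with alpha v. ITGB3, of the vitronectin receptor (ENSG00000259207, chromosome 17, 47253846 to 47311816), had 57.8, 59.2 and 50.02 CPM with TMP195 and 1.54, 5.55, 5.26 and 1.89 CPM in KDAC7 H709A. KDAC4 H803A had 1.39, 0.872 and 2.08 CPM, against 23.1, 21.3, 25.98 and 16.3 CPM in KDAC4 H976Y. The inactive forms were low in every library, TMP195 was high in every library and KDAC4 H976Y lay between. The log2 fold change was -2.61 ± 0.39 in KDAC7 H709A (edgeR adjusted p = 0.00109) and -3.90 ± 0.48 in KDAC4 H803A (adjusted p = 0.000385), both against KDAC4 H976Y. TMP195 was higher by 3.97 ± 0.42 than KDAC7 H709A (adjusted p = 7.49e-05), by 5.26 ± 0.52 than KDAC4 H803A (adjusted p = 4.02e-05) and by 1.36 ± 0.39 than KDAC4 H976Y (adjusted p = 0.0307, lost in 9 of 24 alternatives). This last call was lost without any 1 of the TMP195 or KDAC4 H976Y libraries (adjusted p = 0.0637 at the lowest). A read-through gene shares 51.6% of the exonic bases of ITGB3, and the authors' counts gave it 52.9 counts over all libraries against 3570 for ITGB3.

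ITGB8, the beta subunit that binds latent TGF-beta, had 1.14, 0.916 and 0.802 CPM with TMP195 and 8.49, 14.1, 12.4 and 21.2 CPM in KDAC7 H709A. It had 23.0, 6.40 and 6.47 CPM in KDAC4 H803A and 16.8, 14.5, 14.4 and 12.2 CPM in KDAC4 H976Y. The TMP195 libraries lay below all 11 others. TMP195 was lower by log2 fold changes of -3.87 ± 0.51 against KDAC7 H709A (edgeR adjusted p = 0.000431), -3.64 ± 0.52 against KDAC4 H803A (adjusted p = 0.000849) and -3.91 ± 0.51 against KDAC4 H976Y (adjusted p = 0.000323). Without the 3 libraries the change against KDAC4 H803A was -2.73 (adjusted p = 1.73e-06, range over the alternatives 1.58e-10 to 0.0442). With all libraries ITGB8 was called in none of the comparisons among the variants. Without the 3 libraries it was lower in KDAC4 H803A than in KDAC4 H976Y by -1.19 (adjusted p = 0.000133, range 0.000133 to 0.971) and higher in KDAC7 H709A than in KDAC4 H803A by 1.06 (adjusted p = 0.000827, range 0.000827 to 1). With GC and length offsets as well, the change in KDAC4 H803A against KDAC4 H976Y was -0.407 and was not called (adjusted p = 0.0854).

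ITGB5, which pairs with alpha v as a vitronectin receptor, had 365, 393 and 320.4 CPM with TMP195 and 168, 378, 271 and 189 CPM in KDAC7 H709A. KDAC4 H803A had 188, 176 and 117 CPM and KDAC4 H976Y 387, 409.9, 420.2 and 285.5 CPM. KDAC4 H803A lay below TMP195 and KDAC4 H976Y in every library. It was lower than KDAC4 H976Y by a log2 fold change of -1.23 ± 0.28 (edgeR adjusted p = 0.0134), and TMP195 was higher than KDAC4 H803A by 1.16 ± 0.30 (adjusted p = 0.0369, lost in 13 of 24 alternatives). Without KDAC4 H803A replicate 3 both calls were lost (adjusted p = 0.0746 and 0.170). The TMP195 call was also lost without KDAC4 H803A replicate 2, KDAC4 H976Y replicate 1, 2 or 3, or any 1 of the TMP195 libraries (adjusted p = 0.0624 to 0.145).

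**Figure D4:**
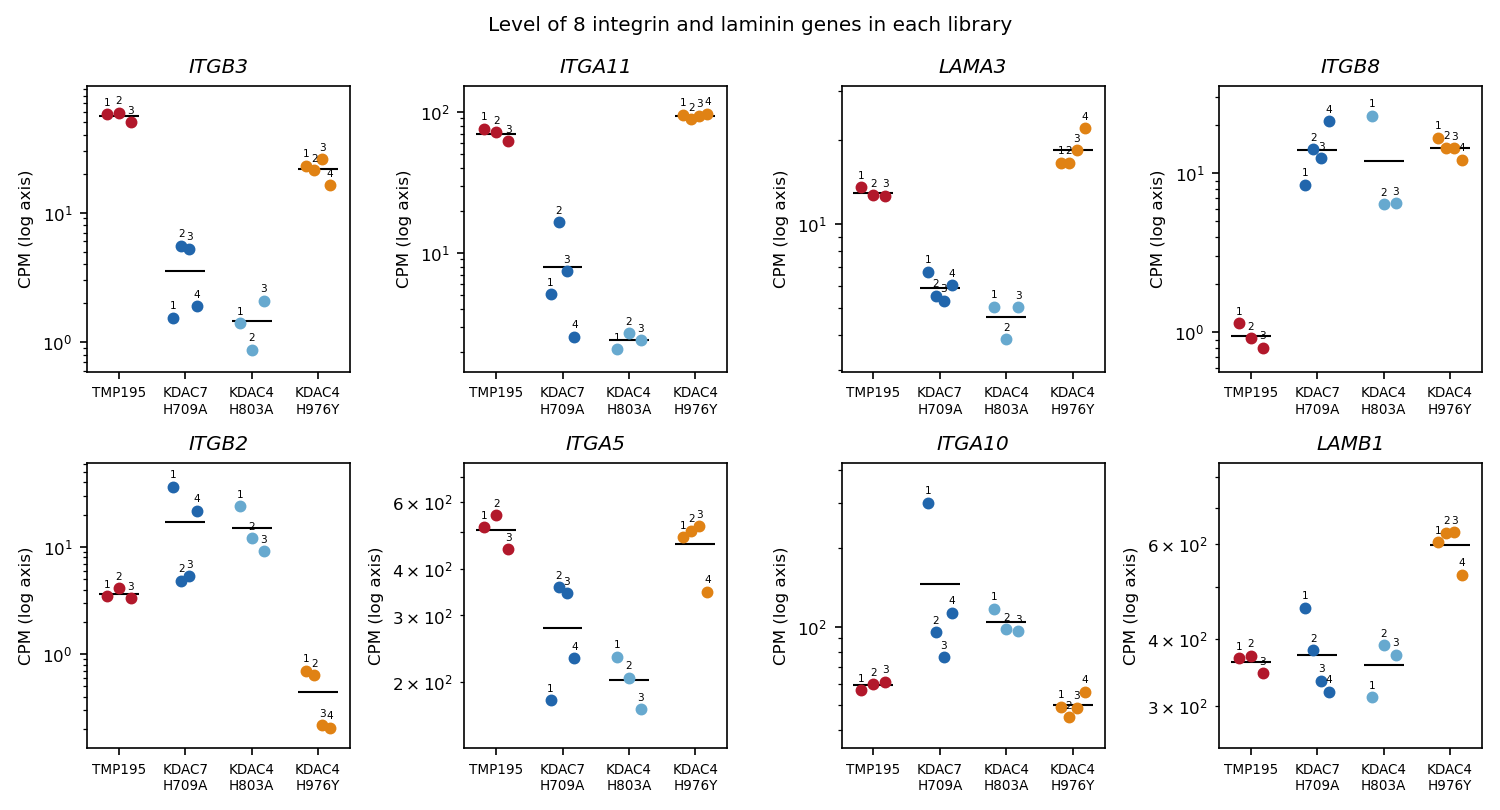
Level in CPM (log axis) of 8 called genes in each library, numbered by replicate, with the group mean as a line. ITGB3, ITGA11 and LAMA3 are low in both inactive forms, ITGB8 is low with TMP195, ITGB2 is lowest in KDAC4 H976Y, and LAMB1 is highest there.

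ITGB2, the beta subunit of leukocyte integrins, had 3.49, 4.15 and 3.34 CPM with TMP195, 36.5, 4.86, 5.38 and 21.8 CPM in KDAC7 H709A and 23.9, 12.1 and 9.10 CPM in KDAC4 H803A. KDAC4 H976Y had 0.704, 0.638, 0.2165 and 0.206 CPM, below every other library. The log2 fold change against KDAC4 H976Y was 5.21 ± 0.75 in KDAC7 H709A (edgeR adjusted p = 0.000844), 5.03 ± 0.76 in KDAC4 H803A (adjusted p = 0.00134) and 2.99 ± 0.76 with TMP195 (adjusted p = 0.0180, lost in 2 of 24 alternatives). These 2 left out TMP195 replicate 2 (adjusted p = 0.0561) or KDAC4 H976Y replicate 3 (adjusted p = 0.0631). Without the 3 libraries it was 3.46 for KDAC7 H709A (adjusted p = 1.09e-05, range over the alternatives 4.45e-11 to 0.00567). An antisense gene, ITGB2-AS1, shares 303 of the 6797 exonic bases of ITGB2 (4.46%). Strand use in the counting is not given in the sources used here, so reads of the 2 genes within these shared bases could not be told apart. ITGB2-AS1 had 1.71 to 2.94 CPM with TMP195, 2.57 to 35.3 CPM in KDAC7 H709A, 5.57 to 30.7 CPM in KDAC4 H803A and 0.638 to 1.299 CPM in KDAC4 H976Y. The leukocyte markers together stood at 1.52 to 4.12 CPM in KDAC4 H976Y and at most 1.54 CPM in the other groups, and their part in the result was not tested.

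ITGB1, the common partner, had 664, 657 and 558 CPM with TMP195 and 396, 1239, 1461 and 1799 CPM in KDAC7 H709A. KDAC4 H803A had 1774, 384 and 267 CPM and KDAC4 H976Y 1890.0, 1936, 2112 and 1239 CPM. TMP195 lay below KDAC4 H976Y in every library, at a log2 fold change of -1.52 ± 0.60 that was not called (edgeR adjusted p = 0.0987). Within KDAC4 H803A replicate 1 lay far above replicates 2 and 3, and the change against KDAC4 H976Y was -1.15 ± 0.59 (adjusted p = 0.187). Without the 3 libraries it was -2.48 (adjusted p = 1.68e-06, range over the alternatives 1.68e-06 to 0.518).

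Of the laminin alpha chains, LAMA3, the alpha chain of laminin-332 (ENSG00000053747, chromosome 18, 23689443 to 23956222), had 13.6, 12.7 and 12.6 CPM with TMP195 and 6.76, 5.55, 5.32 and 6.04 CPM in KDAC7 H709A. It had 5.07, 3.88 and 5.04 CPM in KDAC4 H803A and 16.6, 16.6, 18.4 and 22.04 CPM in KDAC4 H976Y. No 2 of the 4 groups overlapped. Against KDAC4 H976Y the log2 fold change was -1.64 ± 0.18 in KDAC7 H709A (edgeR adjusted p = 0.000142) and -1.98 ± 0.21 in KDAC4 H803A (adjusted p = 9.28e-05). TMP195 was higher by 1.13 ± 0.19 than KDAC7 H709A (adjusted p = 0.00295) and by 1.47 ± 0.21 than KDAC4 H803A (adjusted p = 0.000874). TMP195 against KDAC4 H976Y gave -0.50 ± 0.19 (adjusted p = 0.0890), and KDAC7 H709A against KDAC4 H803A gave 0.34 ± 0.20 (adjusted p = 0.634). LAMA3 was even within each group, also in the libraries that stood apart.

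LAMA1, the alpha chain of the embryonic laminin-111, had 80.7, 84.5 and 88.7 CPM with TMP195 and 116, 95.7, 101 and 102 CPM in KDAC7 H709A. KDAC4 H803A had 98.2, 102 and 106 CPM and KDAC4 H976Y 63.6, 73.9, 73.6 and 63.2 CPM. All libraries of the inactive forms lay above those of the other groups. The change against KDAC4 H976Y was 0.60 ± 0.13 in KDAC7 H709A (edgeR adjusted p = 0.00959, lost in 2 of 24 alternatives) and 0.57 ± 0.14 in KDAC4 H803A (adjusted p = 0.0174, lost in 9). The second was lost without KDAC4 H803A replicate 2 (adjusted p = 0.0553) or 3 (0.0676) or KDAC4 H976Y replicate 1 (adjusted p = 0.0627). With GC and length offsets the KDAC4 H803A change was 0.28 (adjusted p = 0.105, range over the alternatives 1.56e-05 to 0.200).

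LAMA4, the alpha chain of laminins made by mesenchymal and endothelial cells, had 182, 169.6 and 148 CPM with TMP195 and 116, 214, 209 and 234 CPM in KDAC7 H709A. It had 232, 59.8 and 45.5 CPM in KDAC4 H803A, against 369.5, 381, 399 and 257 CPM in KDAC4 H976Y. KDAC4 H976Y lay above all other libraries. The change in KDAC4 H803A against KDAC4 H976Y was -1.64 ± 0.47 (edgeR adjusted p = 0.0338), lost in 10 of 24 alternatives, and -2.75 without the 3 libraries (adjusted p = 1.90e-07, range 1.90e-07 to 0.137). It was -2.76 without KDAC4 H803A replicate 1 alone. It was lost without KDAC4 H803A replicate 2 (adjusted p = 0.133) or 3 (0.137), KDAC4 H976Y replicate 1, 2 or 3 (0.0823 to 0.0907) or any 1 of the TMP195 libraries (0.0513 to 0.0536). LAMA5, the alpha chain of adult epithelial basement membranes, is named because of its spread, seen in the values. It had 142, 144 and 151 CPM with TMP195, 30.6, 76.0, 56.6 and 6.58 CPM in KDAC7 H709A, 7.47, 185 and 188 CPM in KDAC4 H803A and 37.3 to 46.3 CPM in KDAC4 H976Y, and was called in no comparison with all libraries. The TMP195 libraries lay above those of KDAC7 H709A and KDAC4 H976Y. Without the 3 libraries LAMA5 passed, with a log2 fold change of 2.16 in KDAC4 H803A against KDAC4 H976Y (edgeR adjusted p = 3.19e-08, range over the alternatives 3.19e-08 to 0.976) and 1.81 with TMP195 against KDAC4 H976Y (adjusted p = 1.04e-07, range 1.04e-07 to 0.318). With GC and length offsets as well the KDAC4 H803A change fell to 0.417 (adjusted p = 0.00196). With all libraries it was -0.0371 with these offsets and -0.643 with the replicate block added, so its sign depends on the processing. LAMA2, the alpha chain of muscle laminin, stayed at 0.380 to 1.10 CPM.

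LAMB1 had 368, 372 and 346 CPM with TMP195 and 457, 381.5, 334.5 and 319 CPM in KDAC7 H709A. KDAC4 H803A had 311, 389.9 and 374 CPM and KDAC4 H976Y 605, 630.3, 632 and 526 CPM. The 4 KDAC4 H976Y libraries lay above all 10 others, and the other 3 groups overlapped. The log2 fold change against KDAC4 H976Y was -0.73 ± 0.17 with TMP195 (edgeR adjusted p = 0.0131), -0.68 ± 0.16 in KDAC7 H709A (adjusted p = 0.0127) and -0.74 ± 0.17 in KDAC4 H803A (adjusted p = 0.0138). These calls were lost in 4, 1 and 1 of 24 alternatives, that of TMP195 without any 1 of its libraries (adjusted p = 0.0516 to 0.0664).

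LAMB4, a laminin beta chain, was near the limit of detection: the TMP195 libraries had 2 counts in all and the KDAC4 H976Y libraries 55. Its level was 0, 0.122 and 0 CPM with TMP195, 0.0419 to 0.869 CPM in KDAC7 H709A, 0.0633 to 0.969 CPM in KDAC4 H803A and 1.69, 1.70, 1.299 and 3.09 CPM in KDAC4 H976Y. From the pooled counts TMP195 was 42.3 times lower than KDAC4 H976Y, with a 95% exact interval of 11.2 to 358 times that covers counting error only. LAMB4 passed the filter on low counts mainly through the KDAC4 H976Y libraries, so a difference from that group was largely set by the filter. The call is therefore a description, and its p-value is no separate support. It passed edgeR at an adjusted p of 0.0111 and was lost in 2 of 24 alternatives, without TMP195 replicate 1 or 3 (adjusted p = 0.0557 and 0.0570).

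LAMB3 was called in no comparison: it had 881 to 949.6 CPM with TMP195, 512 to 1193 CPM in KDAC7 H709A, 567 to 1236 CPM in KDAC4 H803A and 502 to 678 CPM in KDAC4 H976Y. LAMC1, the gamma chain of most laminins, had 601 to 703.5 CPM with TMP195, 402 to 803.2 CPM in KDAC7 H709A, 271 to 790.2 CPM in KDAC4 H803A and 435 to 660.3 CPM in KDAC4 H976Y, with overlap throughout and no call. LAMB2, and the integrin subunits ITGA1, ITGA4, ITGA7, ITGAE, ITGAX and ITGB4, were tested and called in no comparison. Their levels ran from 0.141 CPM for ITGA7 in 1 KDAC4 H976Y library to 283 CPM for LAMB2 in KDAC7 H709A replicate 1.

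The spread within the inactive groups varied with the GC content of the genes. In KDAC7 H709A replicate 1 minus the mean of the other KDAC7 H709A libraries, the log2 difference of the 29 genes ran from -1.90 for ITGA2 to 2.06 for ITGB2, with 13 genes beyond 1 in either direction. It correlated with the GC content of the transcript at r = 0.723 across the 29 genes, which are not independent replicates. In KDAC4 H803A replicate 1 the same difference ran from -4.55 for LAMA5 (66.4% GC) to 2.54 for ITGA1 (38.8% GC), with 16 genes beyond 1 and r = -0.681. GC-poor ITGA1, ITGA2, ITGA4, ITGA6, ITGAV, ITGB1 and ITGB8 were high in KDAC4 H803A replicate 1 and low in KDAC7 H709A replicate 1. ITGA11, ITGB3 and LAMA3, at 49.6% to 52.3% GC, differed by -0.24, 0.01 and 0.18 in KDAC4 H803A replicate 1. In KDAC7 H709A replicate 1 they differed by -0.41, -1.09 and 0.24. Whether GC content accounts for the spread was not tested, and the calls of ITGA11, ITGB3, ITGB8 and LAMA3 held with GC and length offsets.

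**Figure D5:**
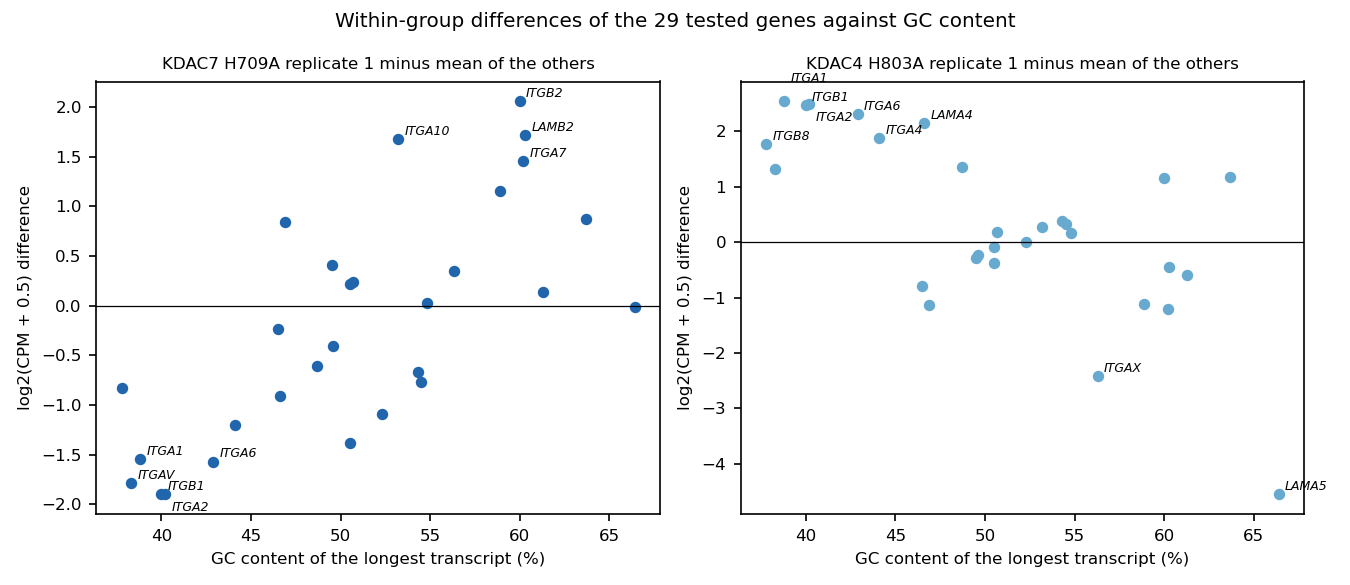
Difference in log2(CPM + 0.5) of replicate 1 from the mean of the other libraries of KDAC7 H709A (left) and KDAC4 H803A (right), against the GC content of the longest transcript, 1 point per tested gene. Points rise with GC content on the left (-1.90 to 2.06) and fall on the right (2.54 to -4.55, the lowest being LAMA5).

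Lists of related genes are described by their calls against KDAC4 H976Y. Of all genes 7.96% were higher and 8.55% lower with TMP195, 7.28% higher and 5.19% lower in KDAC7 H709A, and 9.21% higher and 5.85% lower in KDAC4 H803A. Of 29 tested integrin activators and adhesion adaptors, 4 were higher and 0 lower with TMP195, 5 higher and 1 lower in KDAC7 H709A, and 5 higher and 2 lower in KDAC4 H803A. PXN, the adhesion scaffold paxillin, averaged 555 ± 23.6 CPM with TMP195 (SD, n = 3), 530.0 ± 56.7 CPM in KDAC7 H709A (n = 4) and 533 ± 53.5 CPM in KDAC4 H803A (n = 3), against 282 ± 13.9 CPM in KDAC4 H976Y (n = 4). All 3 of these groups were higher than KDAC4 H976Y (edgeR adjusted p = 0.000945, 0.00127 and 0.00199 in the order given). TLN1, talin, which activates integrins, was higher with TMP195 than in KDAC4 H976Y by 0.91 ± 0.18 (log2, adjusted p = 0.00532). It was also higher with TMP195 than in KDAC4 H803A by 0.81 ± 0.20 (adjusted p = 0.0297), and was not called against KDAC7 H709A. The TMP195 libraries (1016 to 1155 CPM) lay above every other library of TLN1 (at most 788 CPM).

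Among 23 tested ligands of integrins, 5 were higher and 4 lower with TMP195 (16.5% of all genes called), 4 higher and 5 lower in KDAC7 H709A (12.5%) and 6 higher and 5 lower in KDAC4 H803A (15.1%), each against KDAC4 H976Y. TNC, tenascin-C, averaged 83.8 ± 7.12 CPM with TMP195 (SD, n = 3), 89.2 ± 10.2 CPM in KDAC7 H709A (n = 4) and 95.3 ± 15.4 CPM in KDAC4 H803A (n = 3), against 21.7 ± 4.55 CPM in KDAC4 H976Y (n = 4). TGFBI, an adhesion protein bound by integrins, was lower in KDAC7 H709A than in KDAC4 H976Y, by a log2 fold change of -2.95 ± 0.40 (edgeR adjusted p = 0.000601). The KDAC4 H976Y libraries (43.25 to 65.46 CPM) lay above every other library of TGFBI. Its means were 19.9 CPM with TMP195, 7.23 in KDAC7 H709A and 14.1 in KDAC4 H803A. LTBP1, which holds latent TGF-beta in the matrix, was lower in KDAC4 H803A than in KDAC4 H976Y by -3.24 ± 0.54 (adjusted p = 0.00232). Here too the KDAC4 H976Y libraries (314.1 to 507.9 CPM) lay above every other library. The LTBP1 means were 134.5 CPM with TMP195, 104.3 in KDAC7 H709A and 46.4 in KDAC4 H803A.

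Of 15 tested basement membrane partners of laminin, 3 were higher and 2 lower with TMP195 (16.5% of all genes called), 0 higher and 1 lower in KDAC7 H709A (12.5%) and 2 higher and 1 lower in KDAC4 H803A (15.1%), each against KDAC4 H976Y. HSPG2, the basement membrane proteoglycan perlecan, was higher than in KDAC4 H976Y by 1.92 ± 0.38 with TMP195 (log2, edgeR adjusted p = 0.00484) and by 1.33 ± 0.38 in KDAC4 H803A (adjusted p = 0.0333, with overlapping libraries). NID1, nidogen-1, was higher with TMP195 by 1.22 ± 0.35 (adjusted p = 0.0291), and FREM2, a basement membrane protein related to FRAS1, was higher in KDAC4 H803A by 2.45 ± 0.58 (adjusted p = 0.0155). NID2, nidogen-2, which links laminin to collagen IV, was lower than in KDAC4 H976Y in both inactive forms, by -1.52 ± 0.31 in KDAC7 H709A (log2, edgeR adjusted p = 0.00649) and -2.38 ± 0.36 in KDAC4 H803A (adjusted p = 0.00130). FRAS1, a basement membrane protein of skin, was lower with TMP195 than in each variant, by -1.39 ± 0.26 against KDAC7 H709A (adjusted p = 0.00663), -1.36 ± 0.27 against KDAC4 H803A (adjusted p = 0.0101) and -1.40 ± 0.26 against KDAC4 H976Y (adjusted p = 0.00349). Of 16 integrin-associated surface proteins, 3 were higher and 0 lower with TMP195, 1 higher and 0 lower in KDAC7 H709A and 1 higher and 1 lower in KDAC4 H803A, each against KDAC4 H976Y. CD82, a tetraspanin, was higher than in KDAC4 H976Y by 1.92 ± 0.24 with TMP195 (adjusted p = 0.000215), 1.56 ± 0.23 in KDAC7 H709A (adjusted p = 0.000889) and 1.18 ± 0.24 in KDAC4 H803A (adjusted p = 0.00641). Of 13 tested non-integrin laminin receptors, 1 was higher and 0 lower with TMP195, 1 higher and 2 lower in KDAC7 H709A, and 0 higher and 1 lower in KDAC4 H803A, each against KDAC4 H976Y, where 16.5%, 12.5% and 15.1% of all genes were called.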

How the data were processed

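Total RNA depleted of ribosomal RNA was sequenced, per the labels' protocols. The authors deposited expected counts per gene, unscaled. The submitters' processing notes name RSEM 1.3.3, Bowtie2 2.4.5 and Trimmomatic 0.39, the build GRCh38, and DESeq2 1.38.2. Expected counts were rounded, filtered with filterByExpr (minimum count 10, minimum total 15) and TMM-scaled. All 14 libraries were fitted in 1 model without covariates and tested with edgeR 4.0.16 (limma 3.58.1, R 4.3.3), which was tested on simulated data. The SE of a log2 fold change was derived from the F statistic. GC content and transcript length came from GENCODE v29. Total counts ran from 6151417 to 24297525. 1 tested gene enters the counts and is not reported by itself here. The genes, the lists and the alternatives were chosen with earlier results of these data known. Genes named are those called in any of the 6 comparisons, the 5 with the highest level per length, common partner subunits, and up to 3 called genes per list and comparison. Same-numbered libraries deviated together with r of -0.687 to 0.358 over 19 pairs, and differently numbered libraries with r of -0.672 to 0.753. The value of -0.687 was that of KDAC4 H803A replicate 1 with KDAC7 H709A replicate 1, which both stood apart from their groups. These values depend on the labels as given, and whether the numbers pair the libraries was not tested. Intervals cover counting error only. Alternatives included DESeq2 1.42.0, RLE scaling, no filter, GC and length offsets (5 spline degrees of freedom), a replicate block and leaving out libraries. Levels per length with the longest transcript and 1 combined alternative were added after seeing the data.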

Additional observations from a re-analysis of the deposited data

Results flagged for a closer look

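In 3 of 58 groups of 4 libraries, 1 library lay far outside the range of the others, where chance gives about 1 in 20 groups (2.9 of 58). All 3 were KDAC7 H709A replicate 1, which was highest. ITGA10 stood at 300.0 CPM there, against 76.0 to 113 CPM in the other KDAC7 H709A libraries. ITGA7, an alpha subunit of muscle laminin receptors, stood at 2.12 CPM, against 0.313 to 0.545 CPM. LAMB3 stood at 1193 CPM, against 512 to 566.5 CPM. Without the libraries that stood apart, the ITGA10 change in KDAC7 H709A against KDAC4 H976Y was 0.79 on the log2 scale, and 1.56 with them.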

How the results depend on the processing

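Of 35 calls, 18 held in each of 24 alternatives, 17 were lost in at least 1 and 0 changed sign. Leaving out each library in turn, the genes called numbered 5 to 18 in KDAC4 H803A against KDAC4 H976Y, 7 to 11 in KDAC7 H709A against KDAC4 H976Y, 0 to 12 in KDAC7 H709A against KDAC4 H803A, 4 to 11 with TMP195 against KDAC4 H803A, 2 to 10 with TMP195 against KDAC4 H976Y and 4 to 9 with TMP195 against KDAC7 H709A. Each highest count came without KDAC4 H803A replicate 1. In the same order, without the 3 libraries that stood apart the counts were 26, 16, 21, 22, 16 and 17, and with GC and length offsets as well 18, 15, 13, 22, 14 and 11. Fitting only the 2 groups gave 17 with TMP195 against KDAC4 H976Y, and DESeq2 gave 8 with TMP195 against KDAC7 H709A. The cause was not tested. Pairing of the libraries by the numbers of the labels was not tested. With the replicate block 27 of 35 calls were kept and counts were 7, 7, 0, 5, 4 and 4. The block with GC and length offsets gave 4 with TMP195 against KDAC4 H803A. GC and length offsets moved the median of all genes by at most 0.090 (log2), by at most 0.11 with the replicate block as well, and by at most 0.17 where the 3 libraries were also left out. Depth limits LAMB4 and the 9 untested genes.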
